A study of Mus musculus with 24 samples.

Results

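Ccr7, S1pr1, Lef1, Tcf7, Foxo1, Satb1 and Bach2 are genes that T cells use to remain naive, quiescent and in circulation. Their transcript levels were followed through 4 states of mouse CD4+ T cells, with and without the chromatin remodelling subunit BAF180. Every probe carrying 1 of these 7 gene names was taken, whatever its signal. 6 of the genes were found by name, with 8 probes. S1pr1 stood in the array's annotation under its older symbol Edg1 and was found through its gene identifier, with 1 probe. This gave 7 genes and 9 probes, out of 17871 genes and 25697 probes on the array.

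The study compared wild type (WT) and BAF180-deficient (KO) T helper cells to ask what BAF180, encoded by Pbrm1, contributes to their gene expression. BAF180 is a subunit of the PBAF form of the SWI/SNF remodelling complex. There were 24 Illumina arrays in 8 groups, with 3 replicates (A, B and C) in each. The KO mice carried a floxed BAF180 allele and CD4-Cre, a recombinase driven by the CD4 promoter, so that the gene is lost in developing T cells, according to the study late in the CD4-CD8- stage of the thymus. WT mice kept it. The labels give the mice as Balb/c, aged 4 to 6 weeks, whereas the methods describe the floxed allele on a mixed B6-129 background. All cultures of both genotypes began with naive CD4+ T cells isolated from spleen and lymph nodes at 95% purity. These cells were either used directly (resting naive) or kept for 24 h on anti-CD3 (1 µg/ml) and anti-CD28 (2 µg/ml) (stimulated naive). Th2 cells were grown on the same antibodies with 10 ng/ml IL-4 and 10 µg/ml anti-IFN-gamma, followed after 24 h by 100 U/ml IL-2 (resting Th2). Stimulated Th2 cells received in addition 50 ng/ml PMA and 500 ng/ml ionomycin for 1.5 h. The stimuli of naive and Th2 cells therefore differed in agent and in duration. Mice were used in 3 pairs, each of 1 WT and 1 KO animal, and the sources used here do not say whether a letter marks a pair.

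Naive T cells travel between blood and lymphoid organs without dividing. CCR7, a chemokine receptor, brings them into lymph nodes, and S1PR1, a receptor for sphingosine 1-phosphate, lets them out again. FOXO1 is a forkhead transcription factor that supports transcription of homing and survival genes and is driven out of the nucleus by PI3K and AKT signalling. TCF-1, the product of Tcf7, and LEF1 are related HMG-box factors that recognise the same DNA sequence, hold naive identity and partner with beta-catenin. SATB1 organises chromatin in thymocytes and T cells. BACH2 is a repressor that competes with AP-1 factors and holds back effector genes. T cell activation is known to shut down much of this programme.

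Each gene was read by probes of 50 bases, and the first 30 bases of those on which the results turn are given 5′ to 3′, as deposited. The pairs for Tcf7 and Lef1 show which second probes add information. Those of Tcf7 are shifted by 1 base, share 49 bases and are therefore not independent readings, whereas those of Lef1 share none.
Tcf7, brighter probe: ccttgccacattctagaaactctttttgag
Tcf7, other probe: tccttgccacattctagaaactctttttga
Lef1, brighter probe: gagcgaatgtcgtagctgagtgcacgctaa
Lef1, other probe: gcctgtttatcccatcacgggtggattcag
Bach2: ctccccttgtgttttcccctcgtctctgcg
Ccr7: aaaggtaggggaaaggtgacagaaaggaga
S1pr1: gtcactaggtattgatgatggttataaatg

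Levels below are log2 normalized intensities after background correction, and a difference is between group means on that scale. An offset of 16 was added to the intensities before the logarithm, so differences of dim probes are understated. The brighter probe stands for Tcf7 and Lef1 unless stated. The annotation placed Ccr7 and Tcf7 on chromosome 11, S1pr1, Lef1 and Foxo1 on chromosome 3, Satb1 on chromosome 17 and Bach2 on chromosome 4. A probe was detected on an array at a detection p of at most 0.02, and the 14246 probes detected on at least 1 array were tested. The probe for S1pr1 was detected on 0 of the 24 arrays, so no level or difference can be given for it. Foxo1, Satb1 and Bach2 were detected on all 24 arrays, as was the brighter Lef1 probe. The brighter Tcf7 probe was detected on 23 arrays and that of Ccr7 on 21. Results therefore concern 6 of the 7 genes. They are bulk measurements, in which fewer cells with a transcript and less transcript per cell cannot be told apart.

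Arrays detected between 8047 and 10689 probes, and replicate arrays correlated at 0.949 to 0.989. The KO minus WT difference of Pbrm1 was -1.01 in resting naive, -1.63 in stimulated naive, -1.86 in resting Th2 and -1.42 in stimulated Th2 cells, called in each and with no overlap of arrays in any state. All 6 T cell markers were detected in every group, and the Th2 cytokine genes Il5 and Il13 on no resting naive array. Of 6 measured activation markers 5 were called higher and 1 lower after naive stimulation in each genotype, with medians of 1.72 in WT and 2.16 in KO. The exception was Egr1. It and Cd69, which stood in another list, both rapid responders to T cell receptor signals, were called higher in resting than in stimulated naive WT cells, with stimulation differences of -1.01 and -1.43. Markers of myeloid cells were highest in resting naive cells: the summed linear level of the 6 measured of 7 ran from 2588 to 5636 in WT and from 2525 to 3270 in KO, against at most 710 in stimulated naive, 1280 in resting Th2 and 1300 in stimulated Th2 cells. Of these markers Lyz2, Cd14 and Tyrobp were detected on no array outside the resting naive groups, whereas the other measured ones were detected in every group. B cell markers ran from 466 to 1185 in resting naive cells and up to 569 elsewhere, and markers of CD8 T and NK cells from 376 to 801, and up to 414 elsewhere. WT resting naive array C had the highest myeloid sum, 5636, and the lowest mean of the 6 genes among WT resting naive arrays. KO resting naive array C also had the lowest mean of its group, though its myeloid sum of 3256 was like the 3270 of array B. Array C had the highest B cell sum in both genotypes of resting naive, resting Th2 and stimulated Th2 cells. In resting Th2 cells it had the highest mean of the 6 genes in both genotypes. The part of other cells in the comparisons with resting naive cells was not tested.

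**Figure D1:**
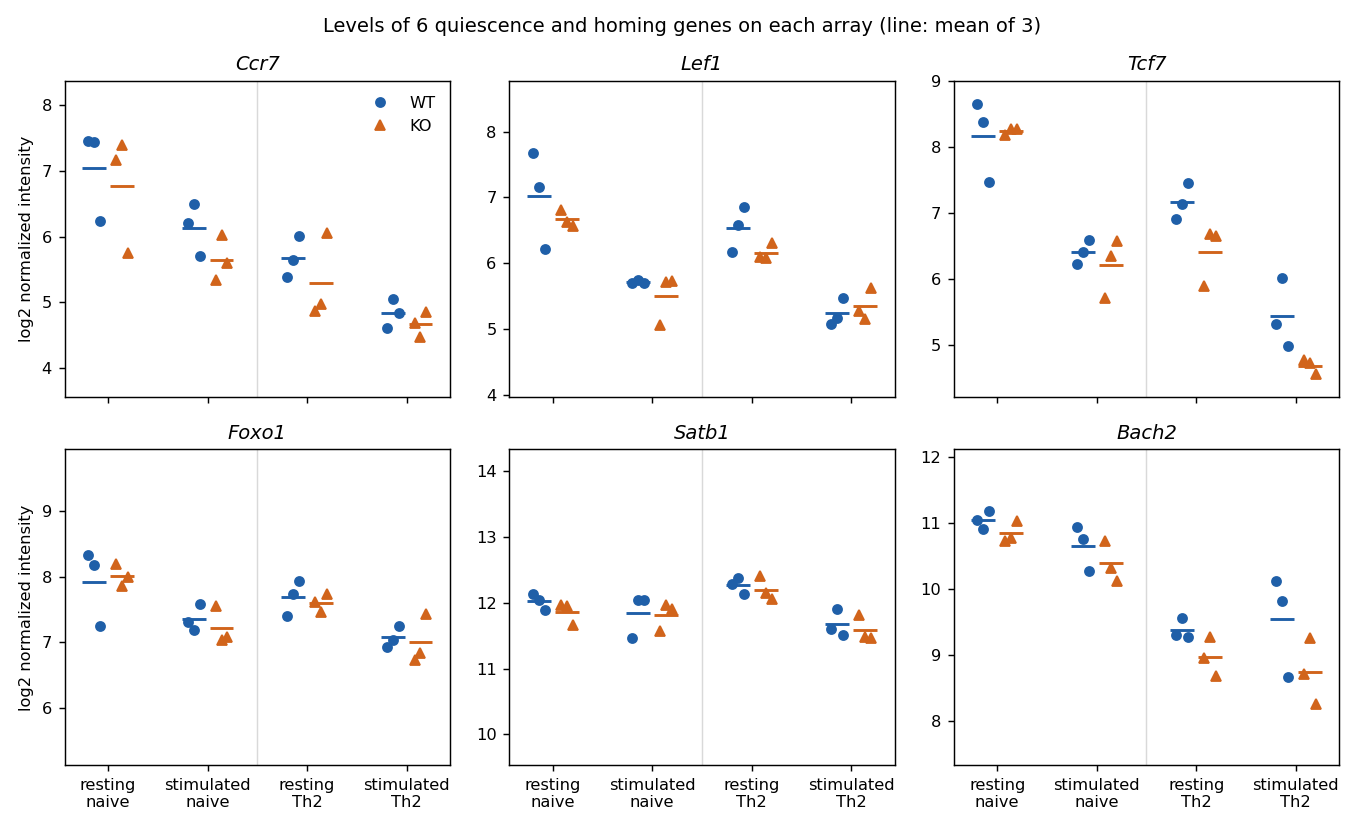
Log2 normalized intensity (y axis) of Ccr7, Lef1, Tcf7, Foxo1, Satb1 and Bach2 on each array in 4 cell states (x axis), with WT as circles, KO as triangles, arrays A to C from left to right and a line at the mean of 3. Tcf7 and Lef1 stepped down with each stimulation, whereas Bach2 lay at 10.12 or above on the naive arrays and at 10.13 or below on the Th2 arrays.

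Stimulation of naive cells lowered Lef1 and Tcf7 in both genotypes, and Ccr7 and Foxo1 in KO cells. A state difference was called at an adjusted p below 0.05 in limma's moderated test. In WT cells 2 of the 6 measured genes were called lower and 0 higher, when 20.0% of all probes were called lower and 23.6% higher. In KO cells 4 were called lower and 0 higher, against 19.3% and 22.3% of all probes. The median difference of the 6 genes was -0.73 in WT and -0.96 in KO cells, and that of all probes 0.013 and 0.025. Without WT resting naive array C the WT count was 4.

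Differentiation to Th2 lowered Ccr7, Tcf7 and Bach2 in both genotypes. From resting naive to resting Th2 cells 3 of the 6 genes were called lower in WT, with 16.0% of all probes lower and 18.4% higher. The same 3 genes were called lower in KO cells, with 15.9% and 18.8% of all probes. No gene of the 6 was called higher in either. The medians of the 6 genes were -0.74 and -0.99, against 0.03 and 0.035 for all probes. Without WT resting naive array C the WT count was 5, and without array A of that group it was 1.

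Restimulation of Th2 cells for 1.5 h lowered Lef1, Tcf7 and Satb1 in both genotypes. These were 3 of 6 genes in WT, where 14.3% of probes were called lower and 13.0% higher, and 3 of 6 in KO, where the shares were 13.8% and 12.0%. Their medians over the 6 genes were -0.73 and -0.62, and those of all probes -0.002 and -0.004. In this comparison none of the 6 measured myeloid markers was called in either genotype. Of these, Lyz2, Cd14 and Tyrobp were detected on no Th2 array, so they carry no information here.

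Compared with stimulated naive cells, resting Th2 cells held more Lef1 and less Bach2 in WT, and less Bach2 in KO. In WT 1 gene was called lower and 1 higher, with 11.5% and 10.8% of all probes, and in KO 1 lower and 0 higher, with 10.3% and 10.2%. These comparisons share groups with those above, so the calls are not independent of each other.

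**Figure D2:**
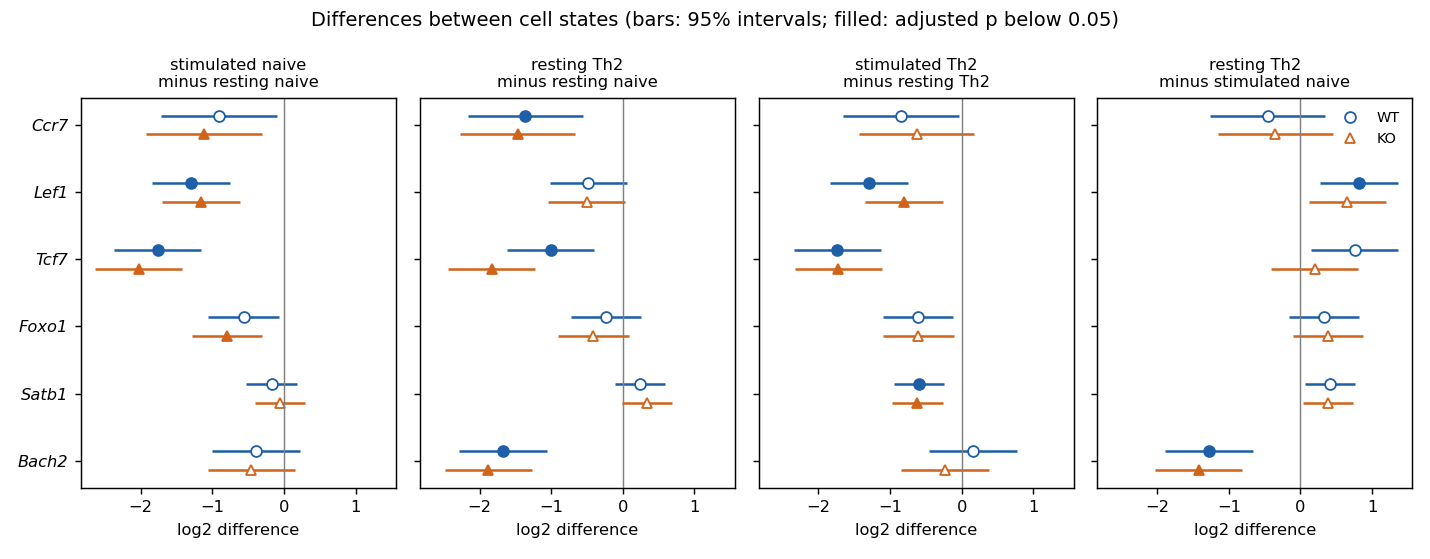
Log2 differences between cell states (x axis) for the 6 measured genes (y axis), with WT as circles, KO as triangles, bars for 95% intervals and filled symbols for an adjusted p below 0.05. Tcf7 is filled and below 0 in both genotypes in each of the first 3 panels, and Bach2 is filled only where Th2 cells are compared with naive cells.

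Tcf7, which encodes TCF-1, was lower after each stimulation and after Th2 differentiation. WT resting naive arrays A, B and C read 8.66, 8.39 and 7.48, and stimulated naive arrays 6.23, 6.42 and 6.59. The groups did not overlap, and the difference of -1.76 (SE 0.29) amounted to 3.40-fold with an adjusted p of 4.78e-05. KO resting naive arrays lay close together at 8.19, 8.27 and 8.27, and stimulated ones at 5.71, 6.35 and 6.58. The KO fall was 2.03, or 4.08-fold. Resting Th2 arrays read 6.91, 7.14 and 7.46 in WT, the highest of them just below the lowest resting naive array. This difference of -1.01 had an adjusted p of 0.0106. In KO cells the resting Th2 arrays stood lower, at 5.89, 6.68 and 6.66, for a difference of -1.83 from resting naive. Restimulation took WT Th2 cells to 5.31, 6.01 and 4.98 and KO Th2 cells to 4.78, 4.73 and 4.55, 1 of which was not detected. The restimulation differences were -1.74 in WT (adjusted p = 0.000109) and -1.73 in KO (adjusted p = 0.000139). Its second probe, overlapping the first, was detected on no KO stimulated Th2 array and was there at least 3.12-fold lower than in KO resting Th2 and at least 7.95-fold lower than in KO resting naive cells. In WT the order was resting naive, resting Th2, stimulated naive and stimulated Th2, with no overlap between neighbours. In KO resting Th2 and stimulated naive cells overlapped.

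Some of these Tcf7 results depended on single arrays or on the scaling. The WT difference between resting naive and resting Th2 was -0.77 (adjusted p = 0.0752) without WT resting naive array A and -0.88 (adjusted p = 0.0507) without WT resting Th2 array A, and the other Tcf7 probe gave -0.77 (adjusted p = 0.165). A fit on the arrays of the compared groups alone gave the same -1.01 with an adjusted p of 0.0608. With median scaling in place of quantile normalization it was -0.08, the WT response to naive stimulation -0.79 (adjusted p = 0.132) and the KO difference between resting states -0.59. That scaling moved the median of all probes to 0.32, 0.24 and 0.55 in these comparisons, which puts Tcf7 at -0.41, -1.04 and -1.14 relative to it. The KO response to naive stimulation and both responses of Th2 cells to restimulation were called in all 36 alternative settings.

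Lef1, the relative of Tcf7, fell with both stimulations and, unlike Tcf7, was not called between the resting states. WT resting naive arrays read 7.67, 7.15 and 6.22, and the stimulated naive arrays 5.70, 5.75 and 5.70. The spread of the stimulated group, an SD of 0.03, was far below the 0.73 of the resting group. The difference was -1.30 (SE 0.26, 2.46-fold, adjusted p = 0.000368). KO cells went from 6.81, 6.63 and 6.56 to 5.07, 5.72 and 5.73, a fall of 1.16 with an adjusted p of 0.00106. WT Th2 cells went from 6.16, 6.59 and 6.85 at rest to 5.08, 5.17 and 5.47 after restimulation. This fall of 1.29 (adjusted p = 0.000691) was called in all 36 alternative settings. KO Th2 cells went from 6.10, 6.07 and 6.30 to 5.28, 5.16 and 5.62, with no overlap. The KO fall of 0.81 (adjusted p = 0.0253) lost its call without KO resting Th2 array A or C or KO stimulated Th2 array A or B, when it was -0.71 to -0.84 with adjusted p of 0.0539 to 0.104. It also lost it without background correction (-0.53, adjusted p = 0.0523) and without the filter on detection (adjusted p = 0.0552).

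Resting Th2 cells were lower than resting naive cells in Lef1 by -0.48 in WT, with an interval of -1.02 to 0.06, and by -0.51 in KO, with an interval of -1.05 to 0.04. Neither was called. The second Lef1 probe, which shares no base with the first, gave -0.79 (adjusted p = 0.00236) in WT and -0.87 (adjusted p = 0.00108) in KO, so the 2 probes fell on different sides of the threshold. Without WT resting naive array C the brighter probe gave -0.88 (adjusted p = 0.00404), and without array A it gave -0.16. Lef1 was higher in WT resting Th2 than in stimulated naive cells by 0.82 (adjusted p = 0.0277). That call was lost without any 1 of the 3 WT stimulated naive arrays or without WT resting Th2 array B or C, at 0.66 to 0.83 with adjusted p of 0.0592 to 0.129, without the filter on detection (adjusted p = 0.0617) and with median scaling (0.81, adjusted p = 0.171). Median scaling gave -0.46 in WT and -0.36 in KO for naive stimulation, neither called, and turned the resting Th2 difference to 0.35 in WT and 0.56 in KO, close to the median of all probes at 0.32 and 0.55.

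Ccr7 encodes the lymph node homing receptor and was lower in resting Th2 than in resting naive cells. WT resting naive arrays read 7.45, 7.44 and 6.24, and WT resting Th2 arrays 5.39, 5.65 and 6.00. The groups did not overlap, and the difference was -1.36 (SE 0.39, 2.57-fold, adjusted p = 0.00937). In KO cells the resting naive arrays read 7.17, 7.39 and 5.75 and the resting Th2 arrays 4.87, 4.97 and 6.06. Here the groups overlapped, since array C was the lowest of the naive and the highest of the Th2 arrays, while the difference of -1.47 had an adjusted p of 0.00557. Array C was also the lowest WT resting naive array for Ccr7. The WT difference was -1.17 with an adjusted p of 0.0521 without WT resting naive array A, and the KO difference had an adjusted p of 0.0619 in a fit on the compared groups alone.

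Naive stimulation gave Ccr7 levels of 6.20, 6.50 and 5.71 in WT, which overlapped with rest. The WT difference of -0.91 had an adjusted p of 0.0644, and it was -1.31 (adjusted p = 0.0108) without WT resting naive array C. It was also called without KO resting naive array C or KO resting Th2 array C, at -0.91 and -0.90. Further calls came without background correction (-0.70, adjusted p = 0.0488) and with a stricter detection filter (-0.91, adjusted p = 0.0447). KO stimulated naive arrays read 5.34, 6.03 and 5.59. The KO fall of 1.12 (adjusted p = 0.0244) lost its call without KO resting naive array A or B or KO stimulated naive array A or C, at -0.81 to -1.08 with adjusted p of 0.0634 to 0.143. Of the other settings, Z-scores gave -0.64, and 3 further choices gave adjusted p of 0.0587 to 0.0852. Restimulated Th2 cells stood at 4.61, 5.05 and 4.84 in WT and 4.69, 4.48 and 4.85 in KO, below every resting Th2 array of their genotype. Detection was lost there on 1 of 3 WT and 2 of 3 KO arrays, and the differences of -0.85 and -0.63 were not called (adjusted p = 0.118 and 0.275). The WT difference was called after normalizing only the compared states (-0.93, adjusted p = 0.0379) and in a fit on the compared groups alone (adjusted p = 0.0174). From resting naive to stimulated Th2 cells Ccr7 differed by -2.21 in WT and -2.09 in KO. With median scaling the Ccr7 differences of stimulated naive and resting Th2 cells from resting naive cells stayed below 0, at -0.06 to -0.48, and none was called. Relative to the median of all probes those values were -0.30 to -0.998.

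Foxo1 encodes the forkhead factor that acts upstream of several homing genes, and its levels moved less. Its WT means were 7.92 in resting naive, 7.36 in stimulated naive, 7.69 in resting Th2 and 7.08 in stimulated Th2 cells, and when the 4 groups were ordered by level, each overlapped with the next. KO means were 8.01, 7.22 and 7.61 in the first 3 of these states, with stimulated Th2 arrays from 6.73 to 7.44. KO naive cells went from 8.19, 7.86 and 7.998 at rest to 7.55, 7.03 and 7.08, a fall of 0.79 (SE 0.24, 1.73-fold, adjusted p = 0.0100) that turned to 0.20 with median scaling, when the median of all probes stood at 0.27. With Z-scores it was -0.48 (adjusted p = 0.0759). In WT cells resting naive arrays A and B read 8.33 and 8.18, and array C only 7.25. The WT difference of -0.56 was not called (adjusted p = 0.0607), was -0.90 (adjusted p = 0.0018) without that array, and turned to 0.43 with median scaling. It was also called without KO stimulated Th2 array C, at -0.56. Restimulated Th2 arrays all lay below the resting ones in both genotypes, with differences of -0.61 in WT (adjusted p = 0.0624) and -0.61 in KO (adjusted p = 0.0669). Of these, the WT difference passed the threshold without WT resting naive array A or C, WT resting Th2 array A or KO stimulated Th2 array C, and the KO difference without WT resting naive array C or KO stimulated Th2 array C, where it was -0.82. Normalizing only the compared states also gave a call in WT (adjusted p = 0.0342) and KO (adjusted p = 0.0369). So did a stricter detection filter (adjusted p = 0.0498) and a fit on the compared groups alone (adjusted p = 0.0357) in WT, and Z-scores in KO (adjusted p = 0.0324).

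Satb1, the chromatin organiser, was the 1 gene of the 6 whose mean was higher in resting Th2 than in resting naive cells, and restimulation of Th2 cells lowered it. WT resting Th2 arrays read 12.28, 12.38 and 12.13, and stimulated ones 11.60, 11.90 and 11.51. The difference was -0.60 (SE 0.17, 1.51-fold, adjusted p = 0.0109). KO Th2 cells went from 12.40, 12.15 and 12.06 to 11.81, 11.49 and 11.46, with no overlap, a fall of 0.62 (adjusted p = 0.00912). The WT call was lost without WT stimulated Th2 array C (-0.52, adjusted p = 0.0524) and the KO call without KO resting Th2 array A (-0.52, adjusted p = 0.0572). With Z-scores in place of quantile normalization the WT difference was -0.71 and the KO difference -0.17, neither called, and median scaling ended the WT call at -0.27.

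Between resting and stimulated naive cells Satb1 differed by -0.17 in WT (interval -0.52 to 0.18) and -0.05 in KO (interval -0.40 to 0.30), neither called, and median scaling turned both upwards, to 0.94 and 1.03, which that fit called. The corresponding medians of all probes were 0.24 and 0.27. The resting Th2 minus resting naive difference was 0.24 in WT and 0.34 in KO, not called, and it was called with median scaling, at 1.23 and 1.63, whereas Z-scores turned it to -0.42 and -0.53. The direction of Satb1 between naive and other cells therefore depended on the scaling.

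Bach2 separated naive from Th2 cells rather than resting from stimulated ones. WT resting naive arrays read 11.05, 10.91 and 11.18, and WT stimulated naive arrays 10.95, 10.75 and 10.27. These overlapped, with a difference of -0.39 (interval -1.003 to 0.22), which was 0.73 with median scaling and -0.78 (adjusted p = 0.0453) with Z-scores. WT resting Th2 arrays read 9.30, 9.56 and 9.27, well below both. The difference from resting naive cells was -1.67 (SE 0.29, 3.18-fold, adjusted p = 0.000163), and that from stimulated naive cells -1.28 (adjusted p = 0.00293). KO arrays read 10.73, 10.78 and 11.03 in resting naive, 10.74, 10.32 and 10.12 in stimulated naive and 8.96, 9.27 and 8.69 in resting Th2 cells. These groups gave -1.88 (3.67-fold, adjusted p = 4.71e-05) against resting naive and -1.42 (adjusted p = 0.00128) against stimulated naive cells. The difference from stimulated naive cells was called in all 36 alternative settings in both genotypes. Median scaling ended the calls against resting naive cells, at -0.74 (adjusted p = 0.0835) in WT and -0.56 (adjusted p = 0.144) in KO, or -1.06 and -1.11 relative to the median of all probes. Restimulation gave 10.13, 9.82 and 8.67 in WT Th2 cells, the widest spread of any Bach2 group (SD 0.77). KO stimulated Th2 arrays read 8.71, 9.25 and 8.26. The restimulation differences of 0.16 in WT and -0.23 in KO were not called, and the WT value was 0.59 (adjusted p = 0.103) without WT stimulated Th2 array C.

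Between genotypes none of the 6 genes met the 4 criteria used for a call, which were a Z-ratio beyond 1.5, a false discovery rate below 0.3, a p below 0.05 and a signal above 0. The last selected nothing here, since corrected intensities with the offset are above 0 for every probe. The p and false discovery rate came from limma. The Z-ratio is a difference divided by the SD of all differences in the comparison. Over all probes 0.681% met them in resting naive, 0.112% in stimulated naive, 0.0842% in resting Th2 and 0.0913% in stimulated Th2 cells. The KO minus WT medians of the 6 genes were -0.18, -0.21, -0.38 and -0.12 in these states, against medians of all probes within 0.002 of 0. The number of the 6 genes below 0 was 4, 6, 6 and 5. The genes share arrays, and median scaling turned Lef1, Foxo1, Satb1 and Bach2 above 0 in resting Th2 cells, at 0.02, 0.39, 0.44 and 0.13, with the median of all probes at 0.23. It also turned Satb1 above 0 in resting and stimulated naive cells, at 0.045 and 0.14, and Lef1 below 0 in stimulated Th2 cells, at -0.095, while Z-scores put Satb1 at 0.15 there.

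Tcf7 was the gene with the lowest KO values relative to WT in resting Th2 cells. The 3 KO resting Th2 arrays (5.89, 6.68 and 6.66) lay below the 3 WT arrays (6.91, 7.14 and 7.46), a difference of -0.76 with an interval of -1.36 to -0.15 and an adjusted p of 0.9999 in limma. In stimulated Th2 cells KO arrays (4.78, 4.73 and 4.55) again lay below WT arrays (5.31, 6.01 and 4.98), with -0.75 and an interval of -1.36 to -0.14. Resting naive cells differed by 0.07 (interval -0.54 to 0.68) and stimulated naive cells by -0.20 (interval -0.80 to 0.41). The change of the genotype difference from resting naive to resting Th2 cells was -0.83 (interval -1.68 to 0.03, adjusted p = 0.9998). Median scaling gave -0.31 in resting and -0.90 in stimulated Th2 cells, or -0.54 and -0.75 relative to the median of all probes. The other Tcf7 probe, nearly the same sequence, gave -0.64 in resting Th2 cells, where its genotypes overlapped (interval -1.51 to 0.22), and -0.67 in stimulated Th2 cells, where they did not (interval -1.53 to 0.20) and no KO array detected it.

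With each gene read by its brightest probe, Bach2 in resting Th2 cells was the other gene whose genotypes did not overlap, with -0.41 and an interval of -1.02 to 0.21. Thus 2 of the 6 genes did not overlap in resting Th2 cells, where 10.1% of all probes did not, and 1 in stimulated Th2 cells, where the share was 7.31%. In resting and stimulated naive cells 0 of 6 were separated, with shares of 7.99% and 6.46%. The other Lef1 probe, which shares no base with the brighter one, did separate the genotypes in 2 states. Its differences were -0.28 in resting naive (interval -0.67 to 0.105) and -0.36 in resting Th2 cells (interval -0.75 to 0.03), neither called. An exact permutation test of 3 arrays against 3 cannot fall below 0.1. Bach2 in stimulated Th2 cells had the largest difference of the 6 genes in any state by the main normalization, -0.80 with an interval of -1.41 to -0.19, and its groups overlapped through WT array C. With the replicate letter as a block within the state, the KO array was compared with the WT array of its letter, and the same -0.80 then met the 4 criteria with an adjusted p of 0.172. It also met them, at -1.23 (adjusted p = 0.113), without WT stimulated Th2 array C. Lef1 in resting naive cells did so without WT resting naive array C, at -0.75 (adjusted p = 0.149) against -0.35 with it. The summed level of the memory T cell markers in resting naive cells was 1278 to 1678 in KO and 804 to 1225 in WT, with S100a6 alone of 6 called, at 1.09. Any part of memory cells in the Lef1 value was not tested.

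**Figure D3:**
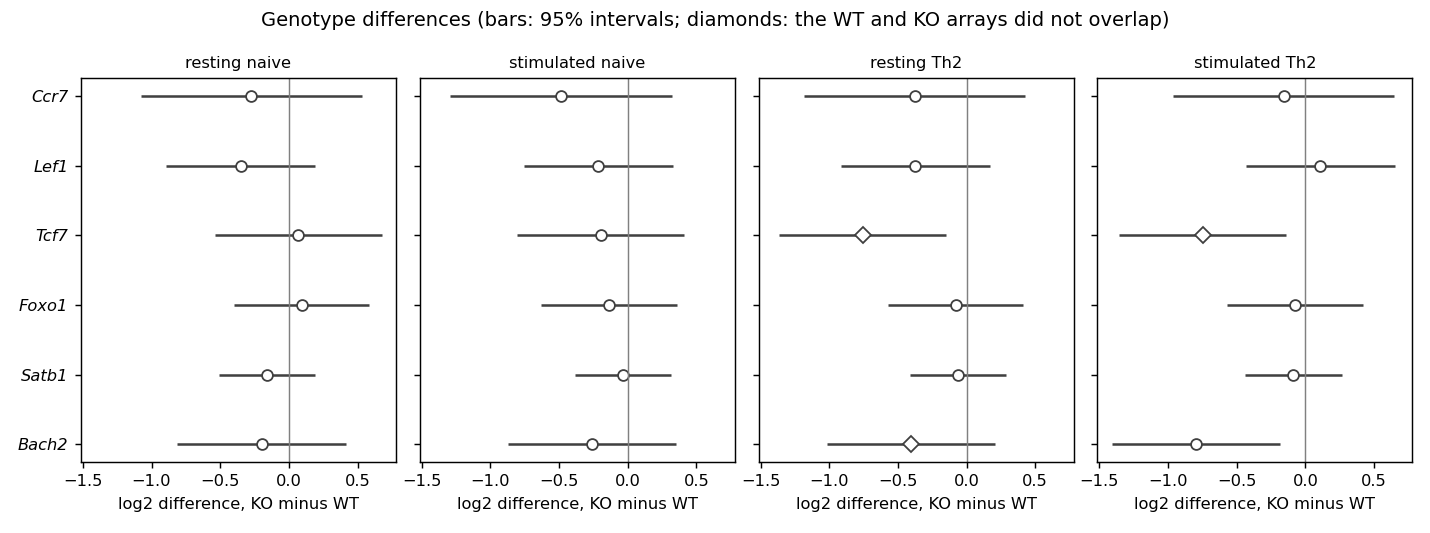
KO minus WT log2 differences (x axis) of the 6 measured genes (y axis) in 4 cell states, with bars for 95% intervals and diamonds where the 3 KO and 3 WT arrays did not overlap. Most intervals include 0, and those of Tcf7 in both Th2 states (-0.76 and -0.75) and of Bach2 in stimulated Th2 cells (-0.80) do not, while those of the other Tcf7 probe, which is not drawn, include 0.

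Whether the response to stimulation or differentiation differed between genotypes was asked by an interaction term. None of the 6 genes passed an adjusted p of 0.05 in any of the 3 interactions. For naive stimulation and for Th2 differentiation 0.00702% of all probes passed, and for Th2 restimulation 0%, with 257 probes at an unadjusted p below 0.05 and a lowest adjusted p of 0.5 in limma's fit. Thus the calls of Ccr7 and Foxo1 after naive stimulation in KO and not in WT cells do not show a difference between the genotypes, whose interaction terms were -0.21 (interval -1.35 to 0.93) and -0.23 (interval -0.93 to 0.47).

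Other genes of homing and egress were lower after naive stimulation, mostly lower after Th2 restimulation, and moved unevenly between the resting states. The counts of this and the following lists stand against shares of all probes called lower and higher of 20.0% and 23.6% for naive stimulation, 16.0% and 18.4% for Th2 differentiation and 14.3% and 13.0% for Th2 restimulation in WT. In KO these shares were 19.3% and 22.3%, 15.9% and 18.8%, and 13.8% and 12.0%. All are by the main normalization. No share is given under median scaling, so list counts under that scaling cannot be set against all probes. Of 11 genes listed, 8 were measured, and all 8, Cd69 among them, were called lower after naive stimulation in both genotypes. Klf2, a transcription factor that sustains S1pr1, had the largest fall, with differences of -5.71 in WT and -5.86 in KO. In WT the difference was -3.52 for Cxcr4, a chemokine receptor, and -2.93 for the integrin subunit Itgb7. After Th2 restimulation 7 were called lower and 1 higher in both genotypes. Klf2 was detected on no stimulated Th2 array and was at least 23.5-fold lower than at rest in WT and at least 20.8-fold in KO, and S1pr4, another sphingosine 1-phosphate receptor, was at least 3.51-fold lower in WT. The gene that rose was Cd69, whose protein holds S1PR1 inside the cell, by 2.30 in WT and 2.43 in KO. Between the resting states the list moved less evenly, with 3 lower and 1 higher in WT and 3 lower in KO. Its WT median there was -0.42 and turned to 0.25 with median scaling, when the median of all probes was 0.32. That scaling left 5 called lower and 0 higher for naive stimulation, 2 and 3 between the resting states and 3 and 1 for Th2 restimulation in WT, and 6 and 0, 1 and 2, and 7 and 1 in KO.

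Of 10 genes linked to quiescence 9 were measured. In WT 5 were called lower and 1 higher after naive stimulation, 5 and 1 after Th2 differentiation and 3 and 3 after Th2 restimulation. Txnip, an inhibitor of glucose uptake and thioredoxin, fell by 5.32 upon naive stimulation, and the cell cycle inhibitor Cdkn1b and the antiproliferative genes Btg1 and Tob1 fell too, with differences of -3.06, -2.66 and -1.97. Slfn2, which is needed for T cell quiescence, was the member that rose, by 1.01. With restimulation of WT Th2 cells Btg1 rose by 0.93 while Txnip fell by 4.04. In KO the counts were 5 and 0, 5 and 0, and 2 and 4. Median scaling left 4 lower and 1 higher, 3 and 1, and 2 and 3 in WT.

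Of 12 further genes of naive identity, all measured, 10 were called lower and 0 higher in WT after naive stimulation, 7 and 0 after Th2 differentiation and 4 and 0 after restimulation. Igfbp4, which encodes a binding protein for insulin-like growth factors, fell by 3.53 with naive stimulation, and the receptor genes Il7r and Il6ra and the transcription factor gene Ets1 had differences of -3.51, -2.83 and -2.63. Il7r and Igfbp4 were not called between the resting states, at -0.01 and -0.07 in WT, whereas Actn1, encoding an actin crosslinker, fell by 3.34. KO counts were 8 and 0, 5 and 0, and 4 and 1. Median scaling left 4 called lower and 0 higher, 3 and 1, and 1 and 0 in WT. It moved the WT median difference between the resting states from -0.73 to 0.01, with the median of all probes at 0.32. Among these 3 lists and the 3 described next, the only genotype call was Dapl1 in resting naive cells, lower in KO by -1.13 (adjusted p = 0.0259).

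**Figure D4:**
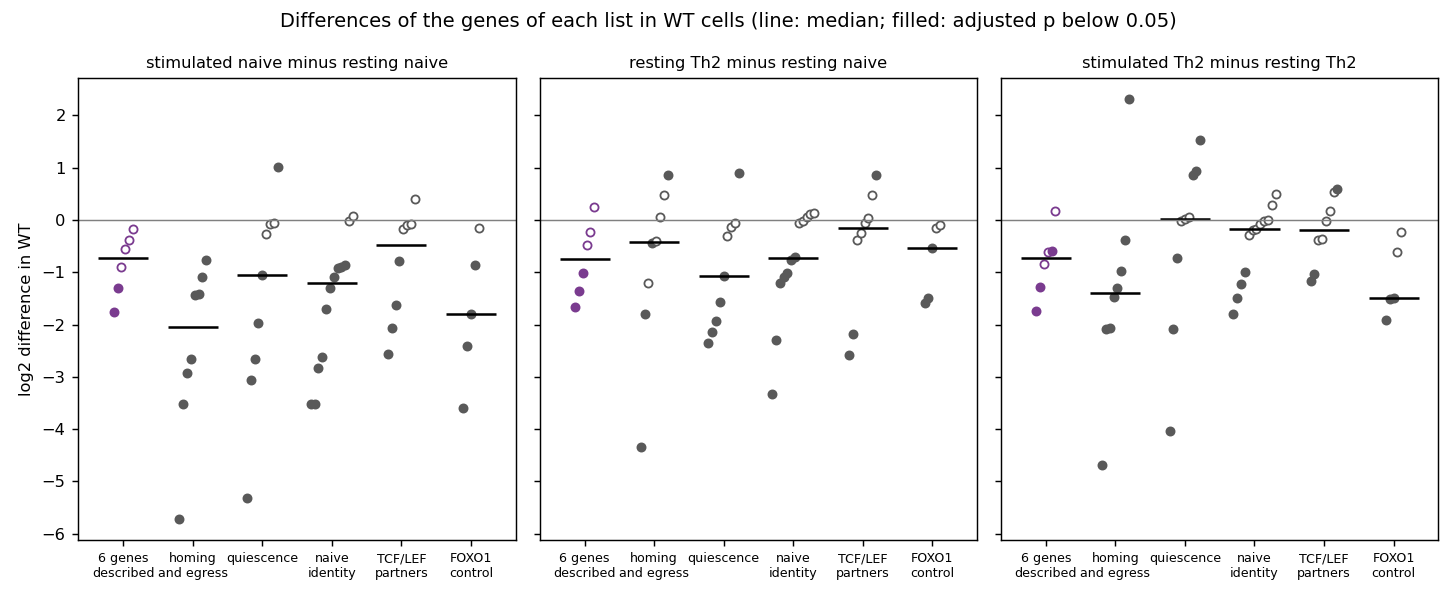
WT log2 differences (y axis) of the 6 described genes and of the genes in 5 related lists (x axis) for 3 comparisons, with filled points at an adjusted p below 0.05 and a line at each list's median. In the first panel the 8 homing and egress genes all lie below 0, the lowest being Klf2 at -5.71, while the 6 described genes lie between -1.76 and -0.17.

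Among partners of TCF-1 and LEF1, 8 of 9 were measured. In WT 4 were called lower and 0 higher after naive stimulation, 2 and 1 after Th2 differentiation, and 2 and 1 after restimulation. Tcf7l2, another member of the same factor family, fell by 2.56 on naive stimulation and differed by -2.57 between resting Th2 and resting naive cells. The stimulation difference was -2.07 for the corepressor gene Tle4 and -1.63 for Axin2, a target of beta-catenin. Ctnnb1, which encodes beta-catenin, was higher in WT resting Th2 cells by 0.86. KO counts were 3 and 1, 3 and 2, and 2 and 1. With median scaling the WT median after naive stimulation turned from -0.48 to 0.20, when the median of all probes was 0.24. There 1 was called lower and 1 higher.

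Of 8 genes that act on FOXO1 through PI3K, AKT and related kinases 5 were measured, and 4, 3 and 3 of them were called lower in WT in the same order of comparisons, with 0 higher. Sgk1, a kinase that phosphorylates FOXO factors, fell by 3.59 after naive stimulation, and the PI3K subunits Pik3r1 and Pik3cd had differences of -2.404 and -1.79. KO counts were 3, 3 and 3 lower. With median scaling the WT counts were 3 lower and 1 higher, 0 and 1, and 2 and 0. BACH2 partners and targets moved least by count: of 6 measured in WT, 1 was lower and 1 higher, 1 lower, and 0, near or below the shares of all probes. Bach1, the relative of Bach2, fell by 1.73 and Mafg, a small Maf partner, rose by 1.05 after naive stimulation. Prdm1, a gene known to be repressed by BACH2, was not called, at 0.04 in WT between the resting states, where Bach2 fell.

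Over the 24 arrays Lef1 and Tcf7 had the highest correlation of any pair of the 6 genes (Pearson's r = 0.879), followed by Lef1 and Foxo1 (0.874). Satb1 and Bach2 were the least alike (r = -0.024). The points of these correlations are arrays that share groups and normalization, so they describe the state pattern and carry no test. The mean of the 6 genes, each centred on its own mean, was 0.92 in WT resting naive, 0.07 in stimulated naive, 0.17 in resting Th2 and -0.65 in stimulated Th2 cells. KO means were 0.78, -0.15, -0.18 and -0.95. The genes whose arrays followed that mean most closely, among 7907 genes detected on all arrays of at least 1 group, were Uvrag (r = 0.950), Ivd (0.945), Klf7 (0.940), Ankmy2 (0.937) and Septin6 (0.937). For single genes the closest 2 were Ift80 and Amigo2 for Ccr7 (0.905 and 0.896), Fam189b and Ranbp10 for Lef1 (0.925 and 0.921), and Klf7 and Tpcn1 for Tcf7 (0.952 and 0.940). Foxo1 was followed by Fmnl3 and Lef1 (0.899 and 0.874), Satb1 by Samhd1 and Lbr (0.843 and 0.840), and Bach2 by Cd6 and Ogdh (0.913 and 0.905).

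Promoters were read because Lef1 and Tcf7 moved together. RefSeq start sites on GRCm38.p6 gave 13 windows of 250 bases upstream of the start for 5 of the genes. Each was searched on both strands for a FOXO motif (GTAAACA), a TCF/LEF motif (CTTTGAT), an ETS motif (CCGGAAG) and an AP-1 motif (TGANTCA), which occur in 3.17%, 3.21%, 6.91% and 6.75% of 32851 promoters. 2 windows held a match, and none held more than 1 motif. Both matches were to the ETS motif on the opposite strand, shown in capitals within 30 bases, and neither says that a factor binds there.
Bach2, chr4:32417405-32417434, + strand, match starting 12 bases before the start site: ctaacgaacgggctttccCTTCCGGtctag
Tcf7, chr11:52282602-52282631, - strand, match starting 25 bases before the start site: agctggagtcaCTTCCGGtgccctgacctt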

How the data were processed

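Total RNA of the 24 samples was hybridized to Illumina MouseRef-8 v2 arrays. The authors extracted probe intensities with GenomeStudio (1.6.0 in the submitters' processing notes) and deposited the intensity of each probe without normalization, beside its detection p-value, which says whether the probe exceeded the negative controls. The study's own Z-score normalization was an alternative here.

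From the deposited intensity table, background was estimated from the detection p-values and corrected, an offset of 16 was added, and all arrays were quantile normalized (neqc in limma 3.58.1, R 4.3.3). Probes detected on at least 1 array (p of at most 0.02) were kept, 14246 of 25697, and a gene was read by its brightest kept probe. limma fitted 8 group means with moderated variances, and p-values were adjusted over all kept probes by Benjamini-Hochberg. State differences and interactions were called at an adjusted p below 0.05, and genotype differences by the thresholds of the 4 criteria in the study's methods. Their p and false discovery rate came from this unpaired limma fit and not from the study's Z-score procedure. They called 97 probes in resting naive, 16 in stimulated naive, 12 in resting Th2 and 13 in stimulated Th2 cells. The study reported many more genes over its conditions, so these are not its own calls. The fit was tested on simulated data. Precision is limited by the 3 arrays of each group: the residual degrees of freedom were 16.

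The members and the gene lists were chosen with earlier results of these data known. In related lists the text names up to 4 called genes with the largest change, and a few others as stated. The single values of 1 gene of the homing list are not reported here. Replicate letters were not paired in the main fit, and the letter as a block was an alternative. Deviations from the group means correlated between same-lettered WT and KO arrays over the 4 states (r = 0.301 for A, 0.136 for B and 0.516 for C). In single states these correlations ran from -0.003 to 0.662. Other alternatives changed background correction, normalization, filter, probe choice, moderation, arrays in the fit and threshold, or left out 1 array. Quantile normalization over the kept probes only was chosen after seeing the data. Gene symbols were updated from RefSeq.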

Additional observations from a re-analysis of the deposited data

How the results depend on the processing

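Each value was recomputed under the alternatives, and the number of the 6 genes called moved by over 1.5 times under the settings that follow, with smaller moves, of 1 gene each, under others. Median scaling gave 1 in place of 2 for naive stimulation, 1 in place of 3 for Th2 differentiation and 1 in place of 2 between stimulated naive and resting Th2 cells in WT, and 2 in place of 4 and 1 in place of 3 for the first pair in KO. The call left for WT naive stimulation was Satb1, called higher, so no gene was called lower there. The same held for Th2 differentiation, with Satb1 at 1.23 in WT and 1.63 in KO. For KO naive stimulation Tcf7 stayed called lower and Satb1 was called higher. Median scaling turned Satb1 after naive stimulation from -0.17 to 0.94 in WT and from -0.05 to 1.03 in KO, and Foxo1 in KO from -0.79 to 0.20. Normalizing only the compared states gave 5 in place of 3 for WT Th2 restimulation and 2 in place of 1 for KO resting Th2 against stimulated naive cells, and fitting only the compared groups gave 5 in place of 3 for WT Th2 restimulation. Without the filter, WT resting Th2 against stimulated naive cells gave 1 in place of 2. Requiring a log2 difference of at least 1 gave 1 in place of 2 there and 1 in place of 3 for KO Th2 restimulation. Z-scores gave 2 in place of 4 for KO naive stimulation, and averaging probes gave 2 in place of 1 for KO resting Th2 against stimulated naive cells. The cause of these moves was not tested, except that fewer or more features or arrays enter some fits by construction.

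Leaving out 1 array gave 2 to 4 genes for naive stimulation, 1 to 5 for Th2 differentiation, 2 to 4 for Th2 restimulation and 1 to 3 for resting Th2 against stimulated naive cells in WT. In KO the ranges were 3 to 4, 3 to 4, 1 to 4 and 1 to 2. Genotype counts were 0 to 1 in resting naive and stimulated Th2 cells and 0 to 0 in the other states, and interactions stayed at 0 to 0. The replicate block within the state gave 1 in place of 0 genotype calls in stimulated Th2 cells, Bach2 at -0.80, and over all arrays the block changed no call of the 6 genes.

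Of the single gene values under the other settings 1019 kept their direction and call, 29 lost and 19 gained a call, 34 moved otherwise and 3 reversed. Leaving out 1 array kept 2109, with 18 lost, 19 gained, 14 moved and 0 reversed. A slide block was not run, since no slide is given in the sources used here. Median scaling moved the median of all probes by up to 0.55 in these comparisons (KO resting naive to resting Th2), so some values under it are also given relative to that median. Values relative to it take the median probe as unchanged between states, and which scaling is right was not tested. Dim probes near background, such as those of Ccr7 and Tcf7 in stimulated Th2 cells, limit how far a fall can be measured.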
